A study of Homo sapiens with 6 samples.

Results

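The enzymes of heme synthesis and the heme-degrading enzyme HMOX1 were followed in K562 cells with and without the K700E substitution of SF3B1. The 9 genes were taken by symbol in pathway order (ALAS1, ALAS2, ALAD, UROS, UROD, CPOX, PPOX, FECH and HMOX1), and all 9 were found, each as a single row, among the 62111 gene IDs listed in both deposited tables. They do not cover every enzyme of the pathway. K562 is a human leukaemia line, derived from a patient with chronic myeloid leukaemia in blast crisis, that carries an erythroid program. There were 3 libraries labelled SF3B1-K700E (K700E below) and 3 labelled SF3B1-wt (WT below), all from K562 cells and with no treatment given in the labels. How the substitution was introduced, the state of the other allele, and whether the libraries came from separate cultures or clones are not stated in the labels, so the p-values speak of the spread between libraries, which may be technical. The values were TPM (transcripts per 1000000), a level per gene length within a library, so that levels of different genes can be set side by side.

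Heme is iron held in a porphyrin ring. Its synthesis starts in mitochondria, where an ALA synthase (ALAS1 in most cells, ALAS2 in erythroid cells) joins glycine and succinyl-CoA, passes through the cytosol (ALAD, UROS, UROD), and ends in mitochondria (CPOX, PPOX, FECH), where FECH inserts the iron. HMOX1 opens the ring again and releases the iron. Mutant SF3B1 is known from myelodysplastic syndromes with ring sideroblasts, erythroid precursors whose mitochondria are loaded with iron, and transcripts of PPOX and of the porphyrinogen transporter gene TMEM14C have been reported as mis-spliced there. The values here are per gene and hold no splice junctions.

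The TPM values could be turned back into whole read ends, between 111628565 and 126480630 per K700E library and between 104642332 and 136588117 per WT library. Every one of the 8 synthesis enzymes had at least 2613 read ends in each library, so the spread between libraries, not counting, set their precision. WT replicate 3 was mostly intermediate in level, as it lay between both other WT libraries in 75.9% of the 15493 genes tested. For each of the other 5 libraries the share within its own group was 10.2% to 46.3%. The K700E and WT values were deposited in separate tables, so a difference in processing between the tables and the genotype cannot be told apart. SF3B1 itself, whose substitution a level per gene cannot show, had 160, 136 and 118 TPM in K700E and 144, 98.9 and 115 TPM in WT, which overlapped. In bulk RNA, fewer cells of a kind and less RNA per cell cannot be told apart. Of 11 erythroid markers all passed the level tested, while 4 of 4 hepatocyte markers and 7 of 10 myeloid and macrophage markers had a mean under 1 TPM. In the other lists 4 of 7 megakaryocyte, 3 of 5 lymphoid and 4 of 5 stromal and epithelial markers passed it. Lymphoid CD3D averaged 289 TPM in K700E and 99.8 TPM in WT, epithelial KRT19 175 and 146 TPM, and myeloid LYZ 112 and 116 TPM. Erythroid EPB42 averaged 1.36 TPM in K700E and 1.54 TPM in WT.

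No heme gene passed the test between genotypes. The fit on log2(TPM + 1) was made with limma over the 15493 genes that averaged 1 TPM or more, and called 1.38% of them at a Benjamini-Hochberg adjusted p under 0.05 (178 higher in K700E, 1.15%, and 36 lower, 0.232%). Of the 9 heme genes, 8 were tested and 0 were called in either direction, with 2 at an unadjusted p under 0.05, which held for 16.5% of all genes tested. The number of heme genes called was also 0 with limma-voom on the recovered reads. The count over all genes depended on the processing. It was 0 without WT replicate 3 or with no filter on low values. With GC correction it was 275 higher and 232 lower. In ALAS2 and UROD the values of the 2 genotypes did not overlap, and K700E was the higher. Over all genes tested, 24.0% did not overlap, 19.0% with K700E the higher and 4.99% with K700E the lower. The median log2 difference of the 8 enzymes was 0.03, against 0.13 over all genes tested, and 3 of the 8 lay above that median gene.

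**Figure D1:**
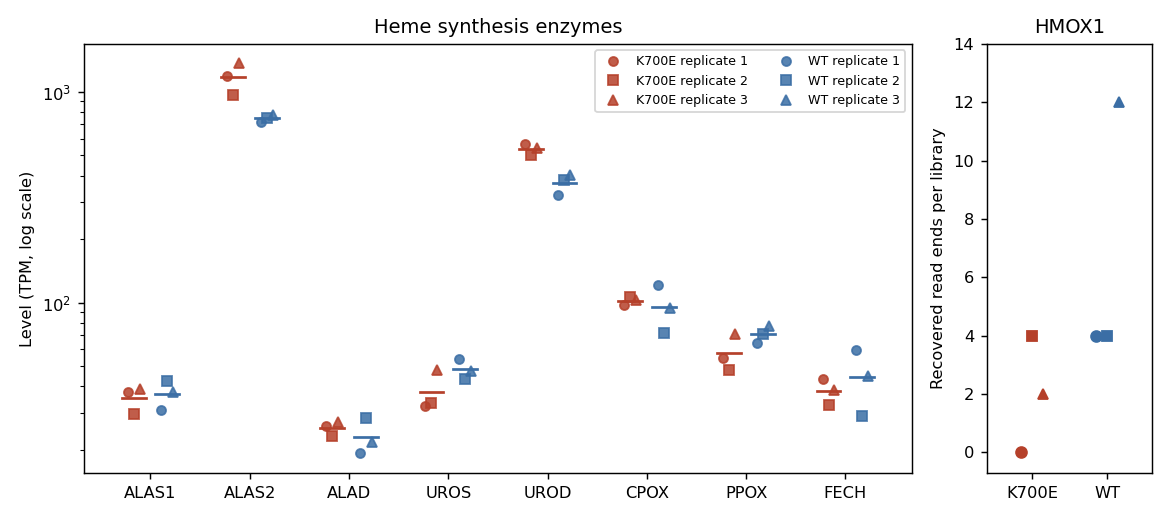
Level of the 8 synthesis enzymes in each library (left, TPM on a log scale, with a bar at the mean of each genotype) and recovered read ends of HMOX1 in each library (right, linear scale). ALAS2 and UROD stand highest and are separate between genotypes, the other 6 enzymes overlap, and no library has more than 12 read ends of HMOX1.

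ALAS2, the erythroid ALA synthase, was the most abundant enzyme of the pathway and was higher in every K700E library than in any WT library. It had 1188, 971 and 1363 TPM in K700E replicates 1, 2 and 3, against 717, 753 and 773 TPM in WT replicates 1, 2 and 3. The WT libraries lay close together and the K700E libraries did not, with coefficients of variation of 16.8% in K700E and 3.77% in WT. The mean was 1174 ± 197 TPM in K700E and 748 ± 28.2 TPM in WT (SD, n = 3 each), a ratio of means of 1.57. The log2 difference of 0.64 (SE 0.14, 95% interval 0.30 to 0.97) had a limma adjusted p of 0.092, over the threshold, and lay 0.51 above the median gene. Without WT replicate 3 the log2 difference was 0.66 and the adjusted p 0.327. ALAS2 (ENSG00000158578) lies on chromosome X, 55035488 to 55057410 on the minus strand of GRCh37, and 3 of its exonic bases are shared with APEX2 on the other strand.

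ALAS1, the ALA synthase of most other cells, differed by less than the spread between libraries. It had 37.7, 29.5 and 38.9 TPM in K700E and 31.0, 42.2 and 37.7 TPM in WT, which overlapped. The log2 difference was -0.06 (SE 0.17, 95% interval -0.47 to 0.34, limma adjusted p 0.894), an interval that also allows a fall or a rise of moderate size. Its sign was positive without K700E replicate 2 (0.060) or WT replicate 2 (0.037). ALAS1 (ENSG00000023330) lies on chromosome 3, 52232102 to 52248343 on the plus strand of GRCh37.

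The ratio of ALAS2 to ALAS1 within a library does not depend on how libraries were scaled. It was 31.5, 32.9 and 35.0 in K700E replicates 1, 2 and 3, against 23.1, 17.8 and 20.5 in WT replicates 1, 2 and 3, so the genotypes did not overlap. The mean ratio was 33.2 ± 1.76 in K700E and 20.5 ± 2.65 in WT (SD, n = 3 each). The difference of 0.70 on the log2 scale gave a two-sided exact permutation p of 0.1, the smallest that 3 libraries against 3 allow. Leaving out any of the 6 libraries kept the difference between 0.61 and 0.79.

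The sequences before the start sites of 4 of these genes are shown to set the erythroid ALA synthase gene beside the other ALA synthase gene, the other enzyme gene without overlap between genotypes (UROD) and an enzyme gene whose values overlapped (CPOX). Each line gives the 250 bases before the start in RefSeq on GRCh38.p14, a later build than that of the deposited tables, on the strand of the gene. Capitals mark matches on either strand to GATAA, the core bound by GATA factors such as GATA1, and to GCTGAGTCA, a motif of the erythroid factor NF-E2. The 2 motifs do not overlap each other in these windows.
ALAS2: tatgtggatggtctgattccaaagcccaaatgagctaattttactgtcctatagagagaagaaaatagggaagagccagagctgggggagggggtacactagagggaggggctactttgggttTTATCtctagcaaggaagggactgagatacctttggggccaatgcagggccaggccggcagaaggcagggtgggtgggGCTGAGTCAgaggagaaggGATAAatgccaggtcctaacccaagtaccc
ALAS1: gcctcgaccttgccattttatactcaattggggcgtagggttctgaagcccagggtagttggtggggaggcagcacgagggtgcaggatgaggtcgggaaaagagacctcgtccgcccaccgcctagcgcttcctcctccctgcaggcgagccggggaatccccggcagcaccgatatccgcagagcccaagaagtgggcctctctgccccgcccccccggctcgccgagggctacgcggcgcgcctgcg
UROD: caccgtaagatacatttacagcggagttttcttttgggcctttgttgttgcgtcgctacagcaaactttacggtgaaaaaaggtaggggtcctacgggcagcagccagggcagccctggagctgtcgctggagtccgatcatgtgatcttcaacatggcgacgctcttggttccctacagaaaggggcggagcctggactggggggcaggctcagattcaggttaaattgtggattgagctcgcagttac
CPOX: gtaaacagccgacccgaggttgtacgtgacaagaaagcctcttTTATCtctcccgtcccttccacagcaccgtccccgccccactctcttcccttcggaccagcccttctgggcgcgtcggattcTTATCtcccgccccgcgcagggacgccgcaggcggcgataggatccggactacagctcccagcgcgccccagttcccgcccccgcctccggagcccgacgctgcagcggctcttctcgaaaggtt

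The windows are chrX:55030978-55031227 (minus strand) for ALAS2, chr3:52197833-52198082 (plus strand) for ALAS1, chr1:45012004-45012253 (plus strand) for UROD and chr3:98593612-98593861 (minus strand) for CPOX. ALAS2 held GATAA at 127 and 30 bases before the start and GCTGAGTCA at 49 bases before it, counted to the first base of the match. CPOX held GATAA at 207 and 125 bases before the start, and the windows of ALAS1 and UROD held neither motif. Of all 35116 RefSeq windows of this length, 20.4% held GATAA and 0.456% held GCTGAGTCA. RefSeq windows were found for 7 of the 9 genes (9 windows), of which 3 held GATAA (ALAS2, CPOX and PPOX) and 1 held GCTGAGTCA (ALAS2). A match is a stretch of letters and was not tested for binding.

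ALAD, UROS and UROD, the cytosolic enzymes followed here, had no called difference, and their log2 differences were not all of one sign. ALAD, which joins a pair of ALA molecules into porphobilinogen, had 25.9, 23.4 and 27.0 TPM in K700E and 19.2, 28.2 and 21.8 TPM in WT. The K700E values all lay within the WT range, and the log2 difference was 0.15 (SE 0.17, 95% interval -0.25 to 0.55, limma adjusted p 0.716). With correction for GC content its sign turned, at -0.0060. UROS, which closes the ring as uroporphyrinogen III, had 32.4, 33.3 and 47.7 TPM in K700E and 53.9, 43.4 and 47.5 TPM in WT. K700E replicates 1 and 2 lay below every WT library, while K700E replicate 3 lay within the WT range. The log2 difference of UROS was -0.36 (SE 0.18, 95% interval -0.79 to 0.07), with a limma adjusted p of 0.386.

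UROD, which removes the carboxyl groups of the acetate side chains of uroporphyrinogen, was the other enzyme without overlap between genotypes and the second most abundant. It had 568, 500.1 and 540.3 TPM in K700E replicates 1, 2 and 3, against 324, 380.2 and 405 TPM in WT replicates 1, 2 and 3. The lowest K700E library lay above the highest WT library. The mean was 536 ± 34.0 TPM in K700E and 369.6 ± 41.7 TPM in WT (SD, n = 3 each), a ratio of means of 1.45. The log2 difference of 0.54 (SE 0.13, 95% interval 0.24 to 0.84) had a limma adjusted p of 0.104, over the threshold, and was 0.41 above the median gene. Over all alternatives run the adjusted p of UROD stayed between 0.065 and 0.332, and without WT replicate 3 it was 0.313. UROD (ENSG00000126088, chromosome 1, 45476622 to 45481247 on the plus strand of GRCh37) shares 375 exonic bases, 15.2% of its exonic length, with HECTD3 on the opposite strand. HECTD3 averaged 78.4 TPM in K700E and 59.1 TPM in WT, and whether the counting used strand is not stated in the labels or headers, so reads from the shared bases cannot be assigned.

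UROS and UROD, which act one after the other, lay on opposite sides of the median gene. Within a library UROD was 17.5, 15.02 and 11.3 times UROS in K700E and 6.01, 8.76 and 8.52 times UROS in WT, which did not overlap. This ratio was set side by side after the values were seen and was given no test.

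**Figure D2:**
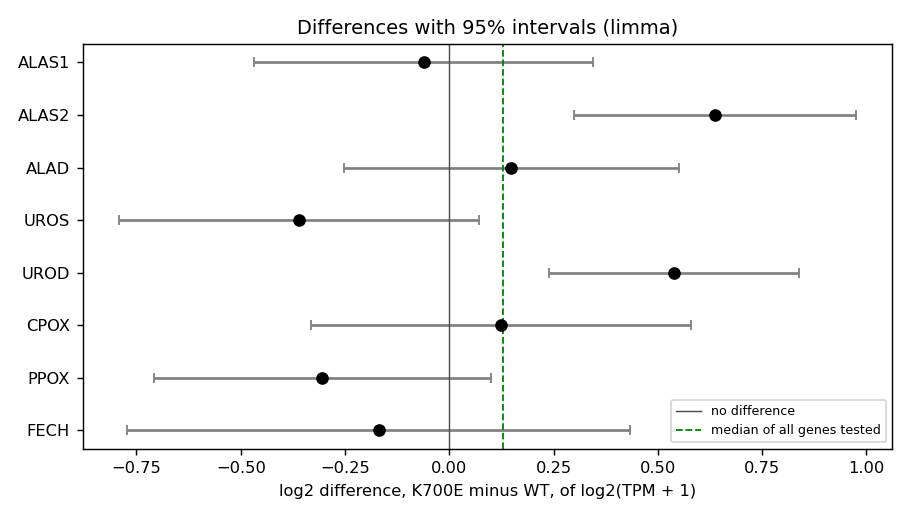
Log2 difference of log2(TPM + 1), K700E minus WT, for the 8 tested heme enzymes in pathway order, with 95% intervals from limma. The intervals of ALAS2 and UROD lie above 0, and those of the other 6 enzymes include 0.

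The 3 enzymes of the late mitochondrial steps showed no called difference. CPOX, which forms protoporphyrinogen, had 97.3, 107 and 102 TPM in K700E and 121, 71.5 and 94.2 TPM in WT. The K700E libraries lay within the WT range, with coefficients of variation of 4.62% in K700E and 26.1% in WT. Its log2 difference of 0.12 (SE 0.20, 95% interval -0.33 to 0.58, limma adjusted p 0.797) was negative with median-ratio scaling (-0.018), TMM scaling (-0.016) and GC correction (-0.033), and without WT replicate 2 (-0.067).

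PPOX, which oxidises protoporphyrinogen to protoporphyrin, had 54.3, 48.0 and 71.0 TPM in K700E replicates 1, 2 and 3 and 64.4, 71.0 and 77.2 TPM in WT replicates 1, 2 and 3. K700E replicates 1 and 2 lay below every WT library and K700E replicate 3 lay among them. The mean was 57.8 ± 11.9 TPM in K700E and 70.8 ± 6.40 TPM in WT (SD, n = 3 each). The log2 difference was -0.31 (SE 0.17, 95% interval -0.71 to 0.10), with a limma adjusted p of 0.435. It ran from -0.46 to -0.18 when single libraries were left out. The gene (ENSG00000143224) lies on chromosome 1, 161136200 to 161146882 on the plus strand of GRCh37, and shares 0 exonic bases with B4GALT3, the gene that overlaps it on the opposite strand.

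FECH, the ferrochelatase, was the most variable of the enzymes in WT. It had 43.2, 32.8 and 38.3 TPM in K700E and 59.5, 29.1 and 44.9 TPM in WT, with coefficients of variation of 13.7% in K700E and 34.3% in WT. All K700E values lay within the WT range. The log2 difference was -0.17 (SE 0.26, 95% interval -0.77 to 0.43, limma adjusted p 0.789), and without WT replicate 1 it was 0.065. WT replicate 3 lay between both other WT libraries in 5 of the 8 enzymes, FECH, CPOX, ALAD, UROS and ALAS1.

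The order of levels was nearly the same in both genotypes. In K700E the means were 1174 TPM for ALAS2, 536 for UROD, 102 for CPOX, 57.8 for PPOX, 38.1 for FECH, 37.8 for UROS, 35.4 for ALAS1 and 25.4 for ALAD. In WT they were 748 TPM for ALAS2, 369.6 for UROD, 95.7 for CPOX, 70.8 for PPOX, 48.3 for UROS, 44.5 for FECH, 37.0 for ALAS1 and 23.1 for ALAD. FECH overlapped with UROS and with ALAS1 in both genotypes, UROS and ALAS1 overlapped in K700E but not in WT, and CPOX and PPOX overlapped in WT but not in K700E. ALAS2 ranked 93 and UROD 205 among the 15493 tested genes in K700E, and 140 and 309 in WT. ALAS2 made up 58.1, 55.6 and 61.2% of the summed TPM of the 8 enzymes in K700E and 51.6, 53.1 and 51.5% in WT.

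The summed level of the 8 enzymes was 2007 ± 245 TPM in K700E and 1437 ± 57.6 TPM in WT (SD, n = 3 each). The other 6 enzymes summed to 291, 274 and 325 TPM in K700E and to 349, 285 and 323 TPM in WT, which overlapped. ALAS2 was 27.5, 29.6 and 35.6 times FECH, the enzyme at the other end of the pathway, in K700E, and 12.05, 25.9 and 17.2 times FECH in WT.

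**Figure D3:**
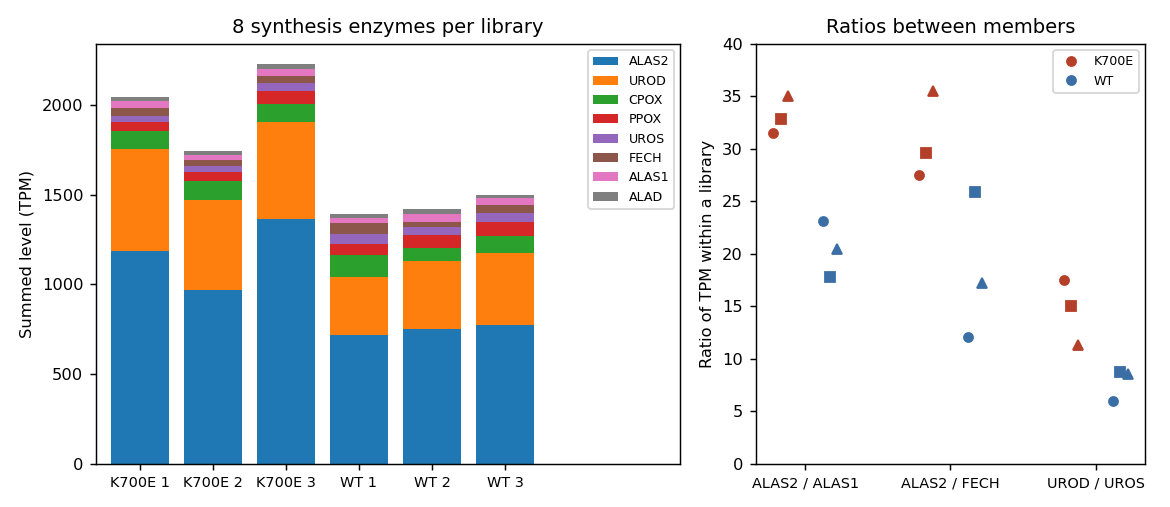
Summed TPM of the 8 synthesis enzymes in each library, stacked by gene (left, linear scale from 0), and ratios of TPM between pairs of the genes within each library (right, markers as replicates 1 to 3). ALAS2 and UROD fill most of each bar, and the ALAS2 to ALAS1 ratio lies between 31.5 and 35.0 in K700E and between 17.8 and 23.1 in WT.

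HMOX1, the inducible heme oxygenase, was near 0 TPM in both genotypes. It had 0, 4 and 2 read ends in K700E replicates 1, 2 and 3 (0, 0.0505 and 0.0244 TPM) and 4, 4 and 12 read ends in WT replicates 1, 2 and 3 (0.0593, 0.0446 and 0.133 TPM). A count of 3 read ends corresponded to between 0.0333 and 0.0445 TPM, the limit that a count of 0 allows. K700E replicate 2 and WT replicates 1 and 2 stood above it by 1 read end and WT replicate 3 by more, while K700E replicates 1 and 3 stood below it. A fold change was not formed. These limits cover counting error only and take read ends as independent. The HMOX1 counts were even in every library, and for ends counted in pairs the limit would lie higher. A count above the limit is therefore not read as detection. With a mean under 1 TPM the gene was not in the main test, and with no filter on low values its limma adjusted p was 0.488. HMOX1 (ENSG00000100292) lies on chromosome 22, 35777089 to 35790200 on the plus strand of GRCh37, and no other gene of the deposited annotation overlapped it.

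The genes on either side of HMOX1 were not silent. They were looked up after the value of HMOX1 was seen. MCM5, a subunit of the replicative helicase that starts 5.93 kb after HMOX1, stood at 84.1 ± 5.07 TPM in K700E and 85.8 ± 26.9 TPM in WT (SD, n = 3 each). TOM1, a gene of endosomal trafficking that ends 33.1 kb before it, stood at 22.9 ± 3.10 TPM in K700E and 26.5 ± 12.6 TPM in WT. Of the other 7 protein-coding genes within about 500 kb, HMGXB4, RBFOX2, APOL6 and ISX averaged over 1 TPM, RASD2 and the myoglobin gene MB under 0.3 TPM, and APOL5 had 0 read ends.

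**Figure D4:**
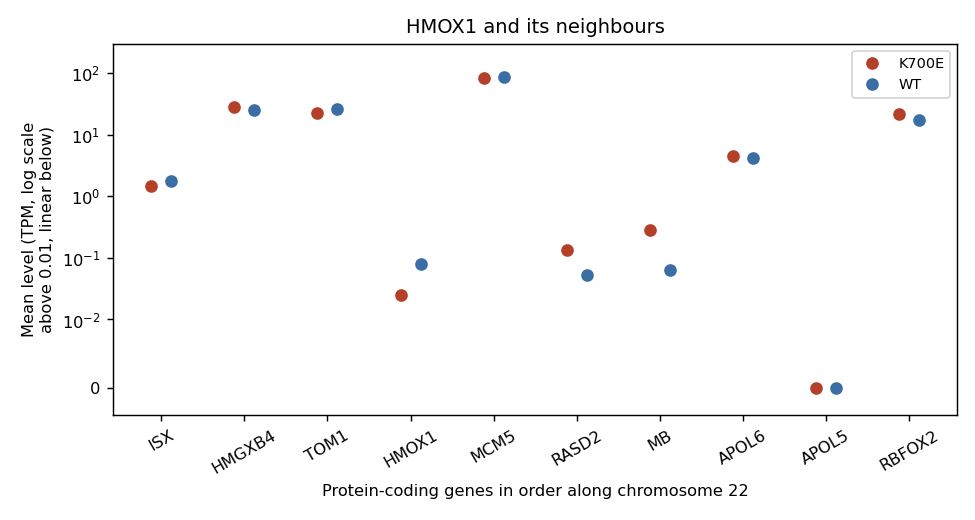
Mean TPM of HMOX1 and the 9 protein-coding genes within about 500 kb, in their order along chromosome 22, in K700E and WT (log scale above 0.01 TPM and linear below). HMOX1 lies under 0.1 TPM in both genotypes between TOM1 and MCM5, which lie over 20 TPM.

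Among the other genes of heme breakdown HMOX2, BLVRA and BLVRB were present, as were BACH1 and NFE2L2, factors that act on HMOX1. HMOX2, the constitutive heme oxygenase, had 41.5, 38.2 and 39.9 TPM in K700E and 26.9, 33.5 and 29.6 TPM in WT, which did not overlap, with a log2 difference of 0.40 (SE 0.14) and a limma adjusted p of 0.207. The biliverdin reductase genes BLVRA and BLVRB, which act after heme oxygenase, stood at 171 and 569 TPM in K700E and 212 and 676 TPM in WT, with limma adjusted p of 0.465 and 0.767. Of 4 genes listed, 3 were tested and 0 were called. The gene not tested, UGT1A1, was near 0 TPM, with 2, 2 and 0 read ends in K700E replicates 1, 2 and 3 and 0 in each WT library. BACH1, the heme-binding repressor of HMOX1, averaged 53.4 ± 4.60 TPM in K700E and 50.3 ± 12.5 TPM in WT (SD, n = 3 each), and NFE2L2, the activator NRF2, 62.5 ± 9.19 TPM in K700E and 53.0 ± 8.02 TPM in WT. Among 11 other targets of BACH1 and NRF2 tested, 0 were called. The smallest limma p among them belonged to FTL, the ferritin light chain gene, at 14350 ± 1142 TPM in K700E and 11239 ± 1196 TPM in WT (adjusted p 0.213), to the quinone reductase gene NQO1 (0.309) and to the cystine transporter gene SLC7A11 (0.551).

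Of the genes that supply or carry heme and its precursors, 18 are reported here. Of these 16 were tested and 0 were called, with a median log2 difference of 0.09 against 0.13 over all genes. TMEM14C, which moves protoporphyrinogen, stood at 294 ± 22.2 TPM in K700E and 269.5 ± 18.6 TPM in WT (SD, n = 3 each; limma adjusted p 0.662). SLC25A38, the carrier linked to mitochondrial glycine import, stood at 106 ± 12.6 TPM in K700E and 117 ± 5.47 TPM in WT (0.650). SLC25A37, the mitoferrin of erythroid cells, had 199, 328 and 359 TPM in K700E and 205, 149.5 and 207 TPM in WT, so K700E replicate 1 lay among the WT libraries (limma adjusted p 0.266). ABCB10, a partner of mitoferrin, averaged 62.3 ± 0.942 TPM in K700E and 63.2 ± 25.2 TPM in WT (0.939), and FLVCR1, described as a heme exporter, averaged 13.2 ± 1.86 TPM in K700E and 9.93 ± 3.95 TPM in WT (0.483).

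**Figure D5:**
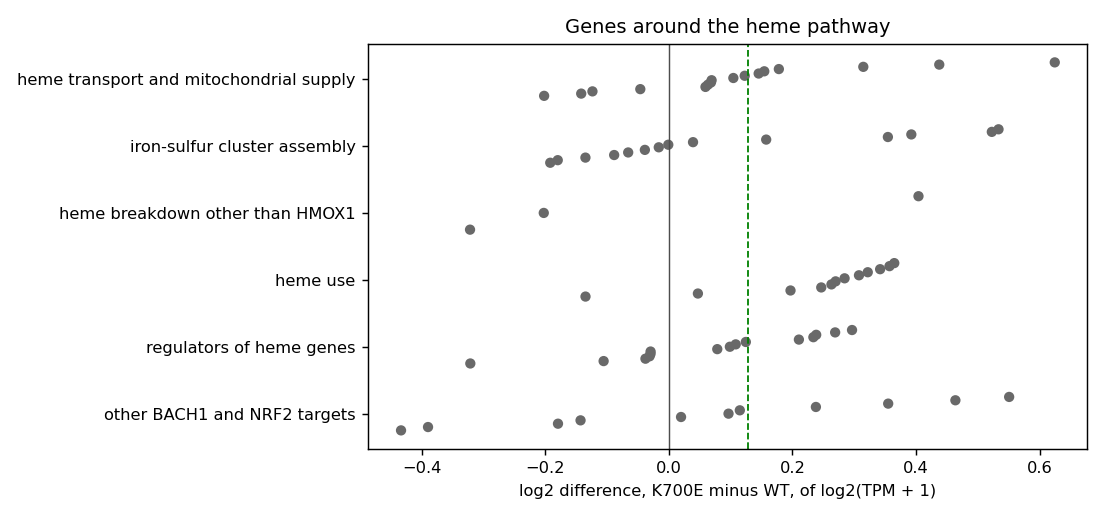
Log2 difference of log2(TPM + 1), K700E minus WT, of the tested genes reported here in 6 lists around the heme pathway (1 point per gene, spread vertically for legibility; solid line at 0, dashed line at the median of all genes tested). The points lie between -0.43 and 0.62, and no gene shown is past the threshold.

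Iron-sulfur cluster assembly, on which FECH depends for its cluster, had 14 of 15 listed genes tested and 0 called, with a median log2 difference of -0.0086. The smallest limma p belonged to FDX1, a mitochondrial ferredoxin, at 13.6 ± 1.91 TPM in K700E and 9.11 ± 1.36 TPM in WT (SD, n = 3 each; adjusted p 0.188), to BOLA3 (0.199) and to ISCA1 (0.292). Genes that use heme had 12 of 12 tested and 0 called, with a median of 0.28. CYB5B, a cytochrome b5 of the outer mitochondrial membrane, stood at 58.4 ± 5.49 TPM in K700E and 45.2 ± 5.05 TPM in WT (limma adjusted p 0.266), and the heme a synthesis genes COX10 and COX15 had adjusted p of 0.359 and 0.366.

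Among regulators of the heme genes 15 of 16 were tested and 0 were called, with a median log2 difference of 0.10. GATA1, the erythroid factor that acts on ALAS2, had 460, 417 and 540.3 TPM in K700E and 273, 494 and 468 TPM in WT, so WT replicate 1 was the lowest of the 6 libraries (limma adjusted p 0.670). The small MAF gene MAFG stood at 51.3 ± 3.06 TPM in K700E and 64.4 ± 5.32 TPM in WT (0.272), ACO1, the iron regulatory protein IRP1, at 24.1 ± 2.12 TPM in K700E and 19.95 ± 2.98 TPM in WT (0.450), and TAL1 had an adjusted p of 0.506.

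Beside the ALAS2 values, the 11 erythroid markers summed to between 1855 and 2910 TPM in K700E and between 1353 and 1890 TPM in WT, with 0 called. The transferrin receptor gene TFRC (839 ± 225 TPM in K700E and 490.5 ± 33.3 TPM in WT) and the embryonic globin gene HBZ (492 ± 223 TPM in K700E and 230.5 ± 62.6 TPM in WT; SD, n = 3 each) were without overlap and higher in K700E, and the globin chaperone gene AHSP was without overlap and lower (8.09 ± 1.28 TPM in K700E and 12.2 ± 2.65 TPM in WT). Over all genes tested, 19.0% were without overlap and higher in K700E, and 4.99% without overlap and lower. The part of these 11 markers in the ALAS2 difference was not tested. Of the markers of other lineages, 4 of 7 megakaryocyte markers were tested, of which ITGB3 rose and PPBP fell. Of 10 myeloid and macrophage markers 3 were tested and 0 called, with CD68 listed at 0 in all libraries, and of 4 hepatocyte markers 0 were tested. CD3D rose among the 3 tested of 5 lymphoid markers, and COL1A2 among the 4 tested of 5 stromal and epithelial markers. Over all genes 1.38% were called, and without WT replicate 3 the count of called genes was 0, these 4 markers included.

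By the likeness of log2(TPM + 1) over the 6 libraries, the genes closest to ALAS2 among 8335 others with a mean of at least 10 TPM were ECM1 (Pearson r 0.9996), ITGB5 (0.991), CD3D (0.990), VOPP1 (0.988) and AXL (0.987). These are the largest of many values over only 6 points in 2 groups that share their libraries, and are given as a description. ECM1, a secreted matrix protein gene, averaged 87.4 ± 28.1 TPM in K700E and 34.3 ± 3.33 TPM in WT (SD, n = 3 each). The same measure was not formed for HMOX1, which had 26 read ends in all.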

How the data were processed

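RNA was measured by mRNA sequencing of K562 cells, 3 libraries labelled SF3B1-K700E and 3 labelled SF3B1-wt. The authors deposited TPM per gene, with a table for each genotype. The tools in the submitters' processing notes are cutadapt (2.10), TopHat2 (2.1), featureCounts (2.0.1) and DESeq2, and the build is GRCh37 (hg19). The header of the WT table follows featureCounts output, while its column names end as the aligner STAR names its files, per the file headers. For the K700E table neither the aligner nor the counting settings are stated. Each column summed to 1000000. The product of TPM and gene length was a whole multiple of a fixed step in each library for 100% of values above 0 (tolerance 0.01), which gave back 104642332 to 136588117 read ends per library.

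IDs were matched to symbols by stable ID (58604 of 62111). The 15493 genes that averaged 1 TPM or more were tested on log2(TPM + 1). The test was limma (3.58.1, R 4.3.3) with moderation on a trend, a single term for genotype, two-sided p and Benjamini-Hochberg adjustment at 0.05. Fold changes on this scale understate the change of low genes. A single ratio was tested by exact permutation. The procedure was tested on simulated data with noise drawn independently for each gene. Such noise holds no shifts shared by many genes of a library, so the calls in these data are not vouched for by it. The genes, lists and tests were chosen with earlier results of these data known. The rule for named genes took SF3B1, the 9 heme genes, a fixed set of related genes, every called gene and the 3 with the smallest p of each related list, and the 5 genes most like ALAS2 (and HMOX1, for which this could not be formed). An item of the related lists is not reported here, and the lists' counts and medians leave it out.

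As alternatives, the pseudocount was 0.1 or 5, the filter was dropped or raised to 5 TPM, libraries were rescaled by median ratio or TMM, the trend was dropped, each library was left out, the replicate number was a block, limma-voom was run on recovered reads, and a loess curve on GC content was removed (97.7% of the genes had a GC value, from GENCODE transcripts of a later build). Added after the data were seen was limma-voom without WT replicate 3. Promoter sequences are from RefSeq, GRCh38.p14. Figures were drawn with Python 3.11.15 and matplotlib 3.10.9.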

Additional observations from a re-analysis of the deposited data

How the results depend on the processing

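No heme enzyme was called under any of the 17 alternatives, and ALAS2, UROD, UROS and PPOX kept their sign in all of them. The limma adjusted p of ALAS2 ran from 0.0817 (GC correction) to 0.366 (limma-voom without WT replicate 3). The sign turned for ALAD with GC correction (-0.0060), and for CPOX with median-ratio scaling (-0.018), TMM scaling (-0.016) and GC correction (-0.033). Leaving out single libraries gave -0.18 to 0.060 for ALAS1, -0.067 to 0.31 for CPOX and -0.44 to 0.065 for FECH. Median-ratio and TMM scaling moved the median gene to about 0, and with them ALAS2 had log2 differences of 0.49 and 0.50.

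The counts over all genes, 178 higher and 36 lower, were 73 and 19 with a mean of at least 5 TPM, 275 and 232 with GC correction, 0 and 0 with no filter (4891 of 38861 at an unadjusted p under 0.05), and 0 and 0 with limma-voom without WT replicate 3 (1404 unadjusted). Leaving out single libraries gave 0 to 144 higher and 0 to 38 lower, with 0 without WT replicate 3 (1462 unadjusted). With the replicate number as a block there were 59 higher and 8 lower genes, and the ALAS2 to ALAS1 difference was 0.70. The same-numbered libraries' deviations correlated at 0.281, -0.192 and 0.299, so the numbers were not taken to pair the libraries. The cause of these changes was not tested. Depth limits HMOX1, at 0 to 12 read ends per library.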
